A study of Bos taurus with 92 samples.

Results

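Blastocysts made by fertilisation in vitro (IVF) were compared with blastocysts obtained after artificial insemination (AI), each embryo measured singly on a custom 2-colour cDNA microarray. The 15 IVF and 14 AI embryos were chosen by the type given in their labels, and made up 29 of the 46 bovine samples of the series and 58 of its 92 arrays. The remaining samples, which entered the model and are given beside the results where they bear on them, were 15 blastocysts from nuclear transfer (NT), in which an oocyte receives the nucleus of a somatic cell, and 2 samples of the donor cells used for it. The IVF group is described in the labels by an embryo number and the word IVF, and the AI group by an embryo number and the word AI, with 3 AI numbers that begin with an unexplained H. Breed, sire, dam, sex, culture medium, day of development and place of development are given for no group, so that the embryos of a kind may share parents or a culture and p-values measure the spread between the embryos sampled. All embryos were treated alike in the labels: Trizol RNA, 1 more round of linear amplification than the common reference RNA, and aminoallyl cDNA coupled to dye.

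A blastocyst is a hollow embryo of an outer epithelium, the trophectoderm, which pumps fluid into the cavity and later forms the placenta, and of an inner cell mass, which forms the embryo proper. In AI, fertilisation takes place in the oviduct of the cow, whereas in IVF oocytes and sperm meet in a dish and the zygote is cultured before it reaches this stage. At this stage the embryo transcribes its own genome, makes ribosomes and draws ATP both from glycolysis and from oxidative phosphorylation, in which the respiratory complexes of the inner mitochondrial membrane build the proton gradient that ATP synthase uses. Culture conditions are known to influence metabolism, redox state and gene expression of cattle embryos, and these processes, with translation, chromatin and the lineage genes, order the account below.

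Levels are log2 ratios of the sample to the reference, averaged over the 2 arrays of an embryo with opposite dyes, with the median of each array at 0. A level can be compared between embryos but not between genes, because the amount of each transcript in the reference is unknown. That the deposited ratio is Cy5 over Cy3 is not stated in the sources used here and was read from the data, and it is likely rather than certain: under the opposite reading every sign below would turn. Under this reading, 14 of 16 measured trophectoderm markers lay higher in the 29 embryos than in the donor cells, 12 of them by at least 2-fold, and 8 of 9 fibroblast markers lay lower, 6 of them by at least 2-fold. The 4 measured inner cell mass markers (KLF4, SALL4, STAT3 and LIFR) went the other way, with all 4 lower in the embryos than in the donor cells, 2 of them by at least 2-fold, and POU5F1, NANOG and SOX2 were not analysed here. A gene was called higher or lower in IVF embryos when its adjusted p (limma, Benjamini-Hochberg over all genes tested) was under 0.05. Differences are log2 values of IVF minus AI with their standard error (SE), and were formed over 15 IVF and 14 AI embryos, with 14 IVF embryos for FILIP1L, 13 AI embryos for DNMT3A, IDH2, EGLN2 and ABCG2 and 12 AI embryos for LIFR. Embryos were analysed whole, so that fewer cells of a type and less RNA per cell cannot be told apart.

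All 29 embryos resembled the rest of their own kind more than the other kind. The first principal component over 6396 probes with a value in every embryo, which held 18.2% of the variance, placed the IVF embryos between 8.70 and 27.9 and the AI embryos between -23.3 and -12.9. IVF embryo 11 stood apart on the second component (7.07% of the variance), where it lay at -55.1, and its correlation with the rest of its group was 0.751, against a median of 0.881 in IVF and 0.862 in AI embryos. Without this embryo 600 genes were higher and 658 lower in IVF embryos. Missing values took 2.25% to 5.85% of the spots in IVF and 3.76% to 7.44% in AI embryos, and the median absolute deviation of the values, a measure of their width, ran from 0.820 to 1.07 in IVF and from 0.885 to 0.987 in AI embryos. No intensities, hybridisation dates or batches are given, so that depth and spot quality are unknown, and effects of batch cannot be told apart from those of embryo kind.

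**Figure D1:**
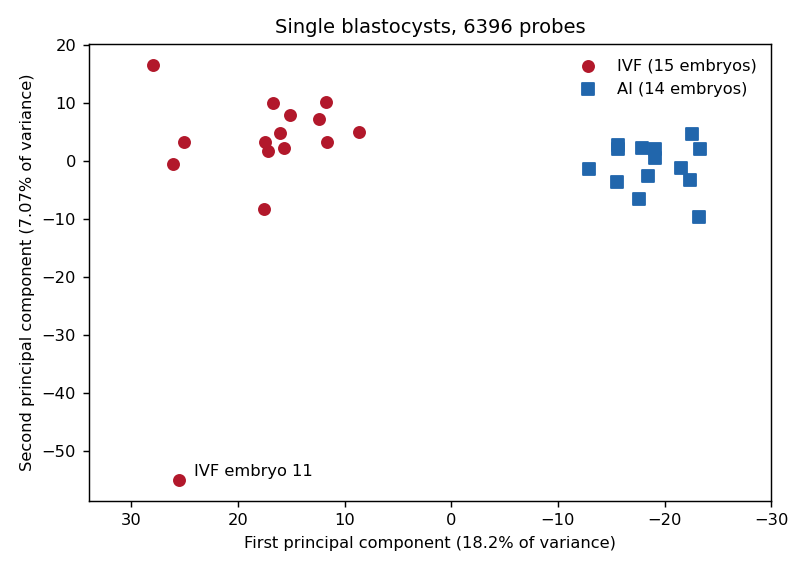
Scores of the 15 IVF embryos (circles) and 14 AI embryos (squares) on the first component (horizontal axis, 18.2% of the variance, drawn with high values to the left) and the second component (vertical axis, 7.07%) of 6396 probes, without units. The kinds do not overlap on the first component, and IVF embryo 11 lies alone at -55.1 on the second.

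Of 4398 named genes, 1299 (29.5%) differed, 611 (13.9%) higher and 688 (15.6%) lower in IVF embryos. The change reached 2-fold in 55 of the higher genes (1.25% of those tested) and in 90 of the lower ones (2.05%). Among all 7992 probes, named or not, 2113 (26.4%) differed, 1059 (13.3%) higher and 1054 (13.2%) lower, with at least 2-fold in 120 (1.5%) and 167 (2.09%) of them. The IVF and AI ranges did not overlap in 21 genes (0.477% of those tested), of which TXNRD1 and SFN were higher (0.0455%) and 19 were lower (0.432%). These 19 included COX7A2, TOMM7, NDUFA2 and MRPS34 of the mitochondrion, the ribosomal proteins RPL35A and RPL23, HNRNPC, SF3B6 and ZCCHC17 of RNA handling, H2AZ1 and NASP of chromatin, and the chaperones PFDN2 and HSP90AA1. With arrays as deposited, without centring, 344 genes were higher and 354 lower, and 697 of the 1299 called genes kept their call with 0 turned in sign. With the sample in Cy5 alone 960 kept it and 8 turned, and with the sample in Cy3 alone 870 kept it and 12 turned.

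**Figure D2:**
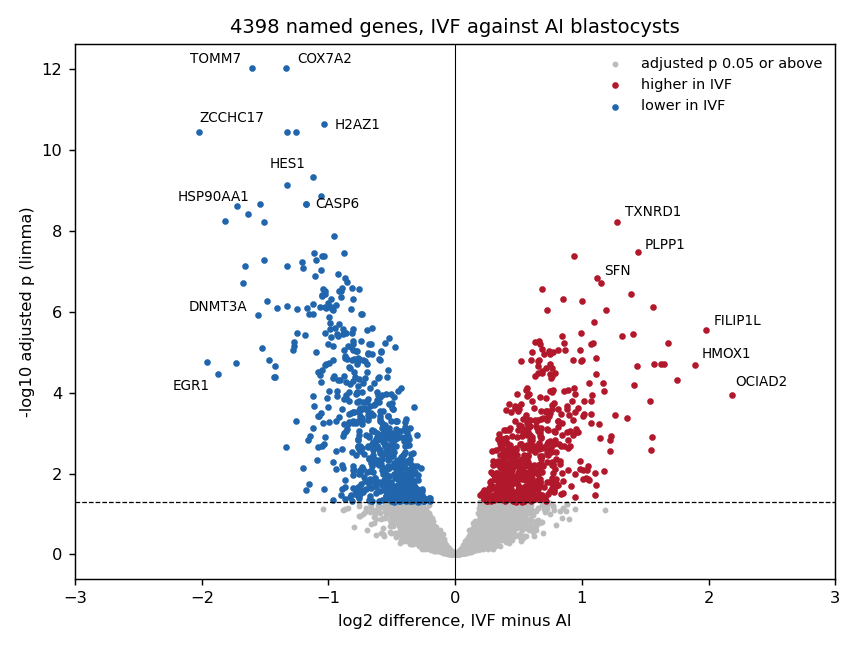
Each point is 1 of 4398 genes, with the log2 difference of IVF minus AI on the horizontal axis and -log10 of the adjusted p from limma on the vertical axis. TOMM7 and COX7A2 stand highest among the genes lower in IVF embryos and TXNRD1 among those higher, and the dashed line marks adjusted p = 0.05.

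The nuclear-encoded genes of oxidative phosphorylation were lower in IVF embryos. Of 47 measured members of the respiratory complexes I to IV and of ATP synthase, 36 fell (76.6%) and 0 rose. Of all genes tested 15.6% fell and 13.9% rose. The median difference was -0.555 against 0.0258 over all genes tested, and 24 of the 36 kept their call under every alternative other than those limited to 14 embryos. The mean level of the 47 genes ran from -0.403 through a median of -0.133 to 0.00801 in IVF embryos, against 0.186, 0.366 and 0.629 in AI embryos, so that the lowest AI embryo lay above the highest IVF embryo. In complex I, which takes electrons from NADH, 15 of 21 fell and 0 rose. In complexes II to IV 11 of 14 fell, in ATP synthase 10 of 12 fell, and 0 rose in either. With arrays as deposited these 3 counts became 10, 7 and 7, with 0 risen in each.

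COX7A2, a small subunit of cytochrome c oxidase (complex IV), ran from -0.68 through a median of -0.026 to 0.34 in IVF embryos, and from 0.90 through 1.23 to 1.54 in AI embryos. The ranges did not overlap, and the difference was -1.33 ± 0.11 (adjusted p = 9.37e-13). NDUFA2, an accessory subunit of complex I, ran from -1.59 through a median of -1.05 to -0.65 in IVF embryos, and from -0.47 through 0.052 to 0.42 in AI embryos. Again every IVF embryo lay below every AI embryo, with a difference of -1.06 ± 0.11 (adjusted p = 1.33e-09). NDUFB9, another accessory subunit of complex I, differed by -1.10 ± 0.14, and UQCRQ, a subunit of complex III, by -1.06 ± 0.14. In complex II, SDHD, which anchors succinate dehydrogenase in the membrane, ran from 0.043 through a median of 1.47 to 1.87 in IVF and from 1.53 through 2.07 to 2.47 in AI embryos, ranges that overlapped at their edges (-0.73 ± 0.14, adjusted p = 5.86e-05). For ATP synthase, the stalk subunit ATP5PB differed by -0.90 ± 0.12 (adjusted p = 3.07e-07) and ATP5IF1, the inhibitor that blocks the enzyme from running backwards, by -0.92 ± 0.14. All 15 IVF embryos lay below the AI mean for each of these 7 genes.

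Of 18 genes of mitochondrial import and assembly, 7 fell (38.9%, against 15.6% of all genes tested) and 3 rose (16.7%, against 13.9%). TOMM7, a small subunit of the translocase of the outer membrane, ran from -0.996 through a median of -0.25 to 0.57 in IVF embryos, and from 0.99 through 1.37 to 1.69 in AI embryos. The kinds did not overlap, and the difference of -1.61 ± 0.13 had, with COX7A2, the smallest adjusted p of all genes (9.37e-13). The copper chaperone COX17 (-1.17 ± 0.17), the receptor TOMM22 (-0.58 ± 0.097) and the matrix chaperonins HSPE1 (-0.97 ± 0.14) and HSPD1 (-0.94 ± 0.24) fell as well. In the other direction, TOMM34, a cytosolic co-chaperone of precursor proteins, rose by 1.18 ± 0.23 and the receptor TOMM70 by 0.58 ± 0.13. The electron transfer flavoprotein, which passes electrons from fatty acid oxidation to the respiratory chain, was lower in both its subunits, ETFA (-0.69 ± 0.12) and ETFB (-1.05 ± 0.15). Among all 25 genes of the citrate cycle and fatty acid oxidation 7 fell (28.0%, against 15.6%) and 3 rose (12.0%, against 13.9%). The median of this list was -0.0414. IDH2, mitochondrial isocitrate dehydrogenase, was among those that rose (1.10 ± 0.33), a call that ended with the sample in Cy3 alone.

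**Figure D3:**
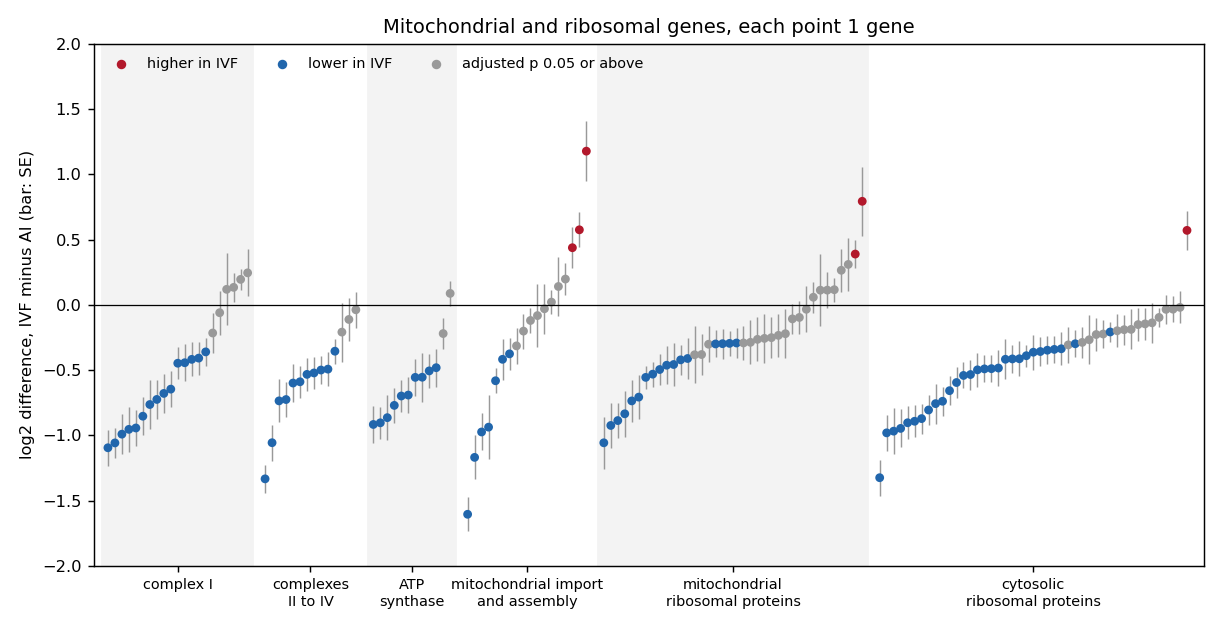
Differences of IVF minus AI (vertical axis, log2, bars show the SE) of each measured gene of 6 lists (horizontal axis, sorted within a list), over 15 IVF and 14 AI embryos. Blue points are lower and red points higher in IVF embryos at adjusted p under 0.05, and in the 3 lists of the respiratory complexes and ATP synthase 36 of 47 genes are blue and 0 red.

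Genes of the ribosome were also lower in IVF embryos. Of 45 cytosolic ribosomal protein genes, 29 fell (64.4%, against 15.6% of all genes tested) and 1 rose (2.22%, against 13.9%). The median was -0.363, and 44 of the 45 had a negative difference. Their mean level ran from -1.13 through a median of -0.821 to -0.619 in IVF embryos, against -0.697, -0.502 and -0.0164 in AI embryos, which overlapped. RPL35A, of the large subunit, ran from -1.84 through a median of -1.07 to -0.45 in IVF embryos and from -0.20 through 0.043 to 0.97 in AI embryos without overlap (-1.33 ± 0.14, adjusted p = 7.09e-10). RPL23 (-0.87 ± 0.12), RPS3, which lines the entry of the mRNA channel (-0.89 ± 0.12), and RPLP1 of the stalk (-0.81 ± 0.11) were each below the AI mean in 15 of 15 IVF embryos. The 1 gene that rose was RPS9 (0.57 ± 0.15), picked out after its value was seen and lost under quantile normalisation and with the sample in Cy3 alone. With arrays as deposited 16 fell and 1 rose. With the sample in Cy5 alone 32 of 46 fell and 2 rose, and with it in Cy3 alone 14 of 47 fell and 0 rose. Of the 29 genes that fell, 13 kept their call under every alternative other than those limited to 14 embryos. Ribosomal protein genes have many processed copies in the genome, and cDNA probes of the kind used here can cross-hybridise between near-identical sequences, which holds for histone and placental gene families too.

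Of 38 mitochondrial ribosomal protein genes, 17 fell (44.7%, against 15.6% of all genes tested) and 2 rose (5.26%, against 13.9%). The median was -0.294, and as deposited 8 fell and 1 rose. MRPL51 ran from -1.33 through a median of -0.25 to 0.73 in IVF embryos and from 0.38 through 0.78 to 1.67 in AI embryos, which overlapped narrowly (-1.06 ± 0.20, adjusted p = 5.25e-05), and MRPL27 differed by -0.89 ± 0.14. MRPS34, of the small subunit, had no overlap between the kinds at a smaller difference (-0.56 ± 0.090, adjusted p = 5.72e-06).

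Of 38 translation factors, 10 fell (26.3%, against 15.6% of all genes tested) and 6 rose (15.8%, against 13.9%), with a median of -0.00277. EIF4A1, the helicase that unwinds the 5′ end of mRNAs, ran from -0.93 through a median of -0.34 to 0.90 in IVF embryos, and from 0.31 through 1.20 to 1.84 in AI embryos. The ranges overlapped, all IVF embryos lay below the AI mean and the difference was -1.51 ± 0.17 (adjusted p = 5.89e-09). The initiation factor subunits EIF3H (-0.76 ± 0.10) and EIF3E (-0.75 ± 0.17) fell, as did NACA (-0.60 ± 0.11), which binds chains as they leave the ribosome. GSPT1, the release factor that ends translation, rose by 0.73 ± 0.11, and EIF5, which triggers GTP hydrolysis at the start codon, by 0.97 ± 0.20. In the nucleolus, where ribosomes are assembled, 8 of 30 genes fell (26.7%, against 15.6% of all genes tested) and 3 rose (10.0%, against 13.9%). GAR1, a protein of the particles that turn uridine into pseudouridine in ribosomal RNA, ran from -0.97 through a median of 0.72 to 1.90 in IVF embryos and from 1.55 through 2.49 to 3.13 in AI embryos, with an overlap at the edges (-1.66 ± 0.21, adjusted p = 7.14e-08). NOP56 (-0.76 ± 0.20), the nucleolin gene NCL (-0.53 ± 0.14) and the nucleostemin gene GNL3 (-0.65 ± 0.18) fell, and TSR1, a factor of small subunit maturation, rose (0.76 ± 0.21).

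Nuclear RNA-binding proteins held several of the largest falls. Of 35 hnRNP and other nuclear RNA-binding protein genes, 11 fell (31.4%) and 2 rose (5.71%), with a median of -0.202. Of all genes tested 15.6% fell and 13.9% rose. HNRNPC, which packages nascent transcripts, ran from -2.28 through a median of -1.20 to -0.65 in IVF embryos, and from -0.46 through 0.31 to 1.12 in AI embryos. The ranges did not overlap (-1.73 ± 0.19, adjusted p = 2.35e-09). PABPN1, the nuclear protein that governs the length of the poly(A) tail, ran from -2.23 through a median of -1.08 to 0.070 in IVF embryos and from -0.12 through 0.57 to 1.30 in AI embryos, a narrow overlap (-1.64 ± 0.18, adjusted p = 3.84e-09). LARP7, which holds the 7SK RNA that restrains transcription elongation, fell by 1.67 ± 0.22 on the log2 scale, and SSB, the La protein that protects new RNA polymerase III transcripts, by 0.88 ± 0.15. HNRNPH2 (-1.04 ± 0.13) and HNRNPH3 (-1.09 ± 0.20) fell too, whereas PCBP1, which binds poly(C), rose (0.75 ± 0.13).

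The largest fall of all named genes was in ZCCHC17, a zinc knuckle protein of the nucleolus and of splicing. It ran from -1.80 through a median of -0.85 to -0.14 in IVF embryos, and from 0.51 through 0.91 to 1.80 in AI embryos, with no overlap (-2.02 ± 0.19, adjusted p = 3.6e-11). Of 57 splicing factor genes 12 fell (21.1%, against 15.6% of all genes tested) and 11 rose (19.3%, against 13.9%), with a median of -0.0316. The branch site protein SF3B6 (-1.15 ± 0.17) and the Sm-like proteins LSM4 (-0.80 ± 0.14), LSM6 (-0.91 ± 0.17) and LSM8 (-0.84 ± 0.15) fell. ZCRB1, of the minor spliceosome and outside that list, fell by 1.51 ± 0.19 (adjusted p = 5.16e-08). PRPF8, at the core of the spliceosome, rose by 0.70 ± 0.12.

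Chromatin genes included DNMT3A, the enzyme that sets new DNA methylation. Its level ran from 0.21 through a median of 1.42 to 2.43 in IVF embryos, and from 2.41 through 2.90 to 3.91 in the 13 AI embryos with a value. The ranges met only at their edges, and the difference was -1.56 ± 0.23 (adjusted p = 1.18e-06). MPHOSPH8, a reader of methylated histone H3 in gene silencing, fell by 1.96 ± 0.34. Of 51 genes of DNA methylation and chromatin, these 2 among them, 14 fell and 4 rose. Those are 27.5% and 7.84%, against 15.6% and 13.9% of all genes tested, and the median was -0.0976. HDAC1, a histone deacetylase (-0.45 ± 0.088), SMARCA2, a remodelling ATPase (-0.79 ± 0.15), and the histone chaperones SET (-0.86 ± 0.13), NAP1L4 (-0.89 ± 0.14) and ASF1A (-0.75 ± 0.16) were among those that fell. CHD4, the remodelling ATPase of the NuRD complex, rose (0.85 ± 0.12). Outside the list KDM2B, which recruits a Polycomb complex to unmethylated DNA, fell (-1.12 ± 0.17) and ATF7IP, a cofactor of histone H3 methylation, rose (0.999 ± 0.17).

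Of 11 histone genes, 5 fell and 0 rose (3 and 0 as deposited), with a median of -0.405. The 3 that kept their call as deposited were H2AZ1, H2AZ2 and H3-3A. H2AZ1 ran from -1.29 through a median of -0.53 to -0.31 in IVF embryos, and from -0.0061 through 0.52 to 0.71 in AI embryos, with no overlap (-1.04 ± 0.094, adjusted p = 2.19e-11). H2AZ2 differed by -0.74 ± 0.11 and H3-3A by -0.78 ± 0.15. NASP, no member of the list and the chaperone that stores histones H3 and H4, ran from -1.15 through a median of 0.55 to 1.14 in IVF embryos and from 1.17 through 1.74 to 2.05 in AI embryos, which did not overlap (-1.33 ± 0.17, adjusted p = 7.36e-08). The 2 calls that ended as deposited, H2AJ and H2BC21, had differences of -0.32 ± 0.099 and -0.97 ± 0.38.

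HSP90AA1, the inducible form of the cytosolic chaperone HSP90, ran from -1.52 through a median of -0.71 to -0.36 in IVF embryos, and from -0.067 through 0.50 to 1.76 in AI embryos. All IVF embryos lay below all AI embryos (-1.54 ± 0.17, adjusted p = 2.18e-09). The subunits PFDN2 (-1.33 ± 0.12, adjusted p = 3.6e-11, no overlap) and PFDN6 (-0.81 ± 0.13) of prefoldin, which hands unfolded actin and tubulin to a chaperonin, fell. Upward moved HSPB8, a small heat shock protein, which ran from -2.58 through a median of -0.92 to 0.63 in IVF embryos and from -3.74 through -2.60 to -1.51 in AI embryos, with overlap (1.68 ± 0.27, adjusted p = 5.88e-06), and the J-proteins DNAJB1 (0.64 ± 0.15) and DNAJA4 (0.66 ± 0.11), which stimulate HSP70. Over the 33 genes of heat shock and cytosolic folding 7 rose (21.2%, against 13.9% of all genes tested) and 5 fell (15.2%, against 15.6%).

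In the endoplasmic reticulum 6 of 29 genes rose (20.7%, against 13.9% of all genes tested) and 7 fell (24.1%, against 15.6%). SPCS1, a subunit of the signal peptidase, ran from -1.88 through a median of -1.48 to -0.95 in IVF embryos and from -0.93 through -0.29 to 0.30 in AI embryos with no overlap at a margin of under 0.05 (-1.18 ± 0.13, adjusted p = 2.18e-09). The secreted stress factor MANF (0.75 ± 0.13) and the ubiquitin ligase SYVN1 of protein quality control (0.74 ± 0.12) rose. Of 27 proteasome genes 10 fell (37.0%, against 15.6% of all genes tested) and 4 rose (14.8%, against 13.9%). Their median was 0.0199, and as deposited 5 fell and 3 rose. The falls included the ATPase PSMC2 (-0.81 ± 0.13, no overlap), the core subunits PSMA6 (-0.80 ± 0.13) and PSMB5 (-0.81 ± 0.17) and the lid subunit PSMD13 (-0.47 ± 0.078). The alternative activator PSME4 (0.86 ± 0.14) and the assembly chaperone PSMG1 (0.56 ± 0.12) were among those that rose.

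**Figure D4:**
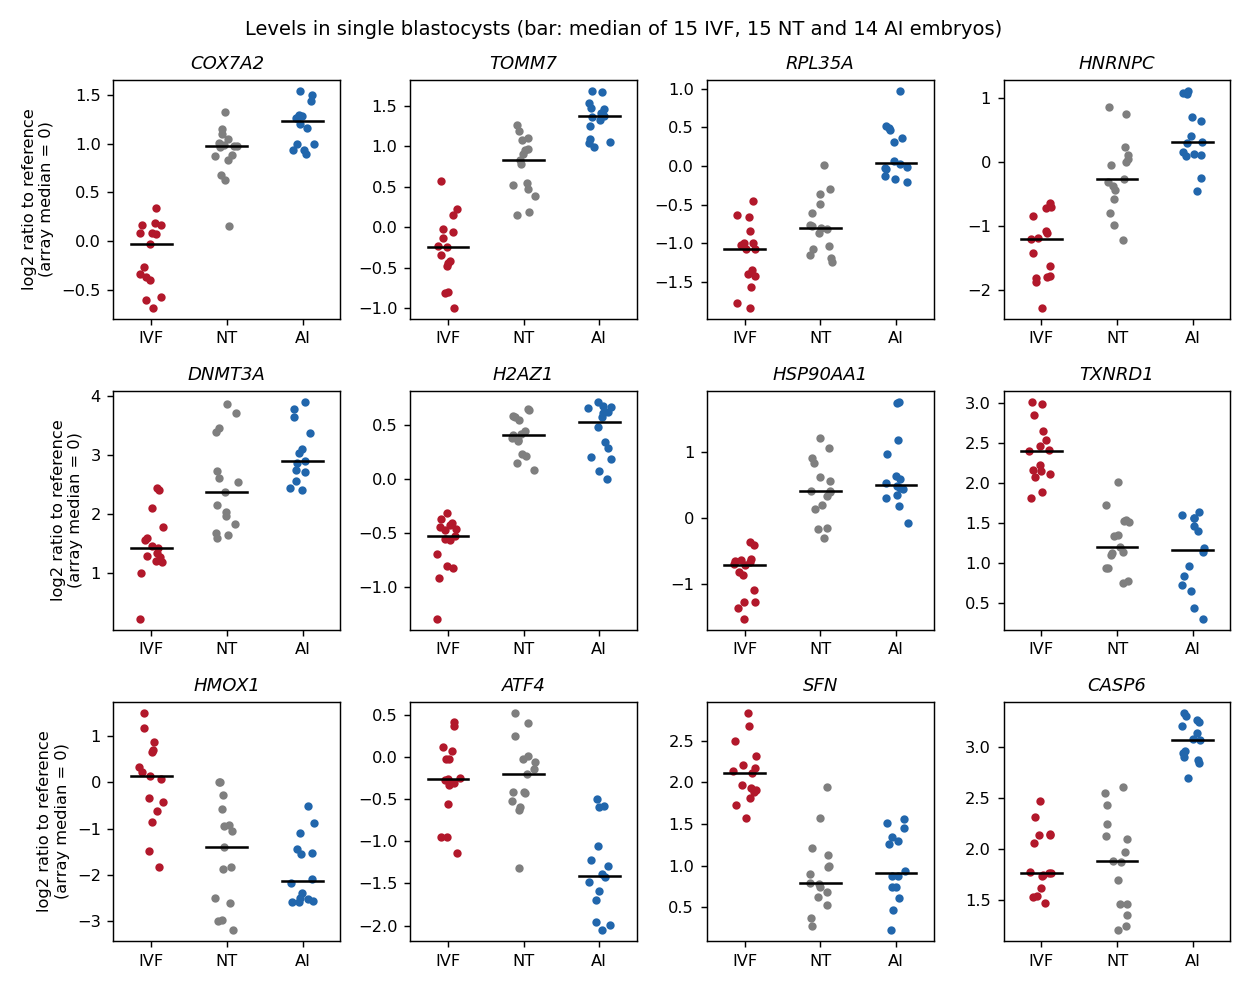
Level in each embryo (vertical axis, log2 ratio to the reference with the array median at 0, own scale for each gene) of 12 genes in 15 IVF, 15 NT and 14 AI embryos, with a bar at the median. TXNRD1 and SFN are higher in every IVF embryo than in any AI embryo, and COX7A2, TOMM7, RPL35A, HNRNPC, H2AZ1, HSP90AA1 and CASP6 are lower in every IVF embryo than in any AI embryo.

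Of 33 redox genes 7 (21.2%, against 13.9% of all genes tested) were higher and 10 (30.3%, against 15.6%) lower in IVF embryos. Their median was -0.027, and as deposited 6 were higher and 4 lower. TXNRD1, the cytosolic thioredoxin reductase, ran from 1.81 through a median of 2.40 to 3.02 in IVF embryos, and from 0.30 through 1.16 to 1.64 in AI embryos. It was the gene of smallest adjusted p among those that rose (1.28 ± 0.15, adjusted p = 5.89e-09), with no overlap between the kinds. HMOX1, the inducible haem oxygenase, ran from -1.84 through a median of 0.12 to 1.49 in IVF embryos and from -2.59 through -2.13 to -0.51 in AI embryos, which overlapped, and exceeded the AI mean in 15 of 15 IVF embryos (1.89 ± 0.33, adjusted p = 2.04e-05). SELENOP, a selenium carrier, rose by 1.11 ± 0.19, and the transcription factor NFE2L2 (0.51 ± 0.15) and the glutathione reductase GSR (0.63 ± 0.21) rose too. The falls included proteins of the mitochondrion, the peroxiredoxin PRDX3 (-1.03 ± 0.16), the thioredoxin TXN2 (-0.96 ± 0.17) and the glutathione transferase GSTK1 (-0.59 ± 0.10). Of the other peroxiredoxins, enzymes that reduce peroxides, PRDX1 (-0.46 ± 0.16), PRDX2 (-0.47 ± 0.11), PRDX4 (-0.61 ± 0.17) and PRDX6 (-0.41 ± 0.10) fell. NFE2L2, GSR and these 4 were named after their values were seen. The calls of NFE2L2 and GSR ended with the sample in Cy5 alone, and those of the 4 peroxiredoxins ended as deposited.

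Of 13 measured genes of the amino acid response and serine synthesis, 4 rose (30.8%), 1 fell (7.69%) and 8 did not pass the test. Of all genes tested 13.9% rose and 15.6% fell. ATF4, the transcription factor that ties the sensing of scarce amino acids to gene expression, ran from -1.14 through a median of -0.26 to 0.42 in IVF embryos, and from -2.05 through -1.41 to -0.49 in AI embryos. The ranges overlapped, and all 15 IVF embryos exceeded the AI mean (1.07 ± 0.17, adjusted p = 6.37e-06). ATF3 (0.82 ± 0.18), DDIT3 (0.76 ± 0.20) and SESN2 (0.80 ± 0.22), genes that ATF4 is known to induce, rose and kept their calls under every alternative other than those limited to 14 embryos. TRIB3, another such gene, differed by 0.33 ± 0.18 (adjusted p = 0.154) and did not pass the test. CEBPB fell (-0.43 ± 0.16), a call that ended as deposited, with the sample in Cy3 alone and without the AI embryos labelled H.

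Of 23 genes of apoptosis and the p53 pathway, 9 rose (39.1%, against 13.9% of all genes tested) and 3 fell (13.0%, against 15.6%). The median was 0.253. SFN, a 14-3-3 protein of epithelia that p53 can induce, ran from 1.58 through a median of 2.11 to 2.83 in IVF embryos, and from 0.23 through 0.91 to 1.56 in AI embryos. The lowest IVF embryo lay just above the highest AI embryo (1.12 ± 0.15, adjusted p = 1.46e-07). PERP, a membrane protein of desmosomes (0.69 ± 0.094, adjusted p = 2.64e-07), GADD45A, a DNA damage response protein (0.76 ± 0.14), and CDKN1A, the cyclin-dependent kinase inhibitor p21 (0.59 ± 0.13), also rose. CASP6, an executioner caspase, ran from 1.48 through a median of 1.77 to 2.47 in IVF embryos and from 2.70 through 3.07 to 3.33 in AI embryos, with no overlap (-1.17 ± 0.13, adjusted p = 2.18e-09). The other 2 that fell were AIFM1 (-0.995 ± 0.19) and DIABLO (-0.58 ± 0.15), proteins that mitochondria release in cell death, and the call of DIABLO ended with the sample in Cy3 alone.

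In glycolysis and glucose uptake 4 of 15 genes rose (26.7%, against 13.9% of all genes tested) and 3 fell (20.0%, against 15.6%). LDHA, which makes lactate from pyruvate, ran from -2.23 through a median of -0.94 to -0.23 in IVF embryos and from -2.76 through -2.18 to -1.01 in AI embryos, with overlap (0.93 ± 0.19, adjusted p = 0.000156, above the AI mean in 14 of 15 IVF embryos). TPI1 (-0.81 ± 0.12) and PGAM1 (-0.57 ± 0.12), enzymes of the middle and lower pathway, fell. PFKFB3, which makes the activator of phosphofructokinase, differed by 0.99 ± 0.15, a call that ended with 1 probe per gene. Of 18 hypoxia response genes 5 rose (27.8%, against 13.9%) and 1 fell (5.56%, against 15.6%). Among the 5 were LDHA, PFKFB3 and EGLN2, an oxygen sensor (0.60 ± 0.15, lost as deposited). The fall of the glucose transporter SLC2A1 (-0.44 ± 0.17, adjusted p = 0.048) ended under 6 of the alternatives, quantile normalisation and the omission of IVF embryo 11 among them.

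Of 16 trophectoderm markers 2 rose, 2 fell and 12 did not pass the test, where 13.9% of all genes tested rose and 15.6% fell. Their mean level ran from 1.55 through a median of 2.05 to 2.30 in IVF embryos, against 1.76, 1.95 and 2.52 in AI embryos. CDX2 and IFNT were not analysed here. TFAP2C, a transcription factor of trophoblast, differed by -0.030 ± 0.16 (95% interval -0.34 to 0.28) and the keratins KRT8 (-0.35 ± 0.15), KRT18 (-0.38 ± 0.16) and KRT19 (0.15 ± 0.15) by less than the test resolved. GATA3, a regulator of trophoblast fate, rose (0.56 ± 0.17), a call that ended with the sample in Cy3 alone. TFAP2A fell (-0.67 ± 0.23) and turned in sign with the sample in Cy3 alone. Of 4 inner cell mass markers SALL4 rose (0.50 ± 0.10), STAT3 fell and KLF4 (-0.40 ± 0.18) and LIFR (-0.27 ± 0.23) did not pass. The mean level of these 4 ran from -0.277 through 0.17 to 0.603 in IVF embryos, and from -0.0719 through 0.582 to 1.03 in AI embryos, with a median difference of -0.334, and its part in the other results was not tested.

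STAT3, which carries the signal of the cytokine LIF, ran from -1.50 through a median of -0.49 to 0.32 in IVF embryos, and from -0.27 through 0.94 to 1.65 in AI embryos. The ranges overlapped, and every IVF embryo lay below the AI mean (-1.41 ± 0.20, adjusted p = 8.12e-07). Among the other lineage transcription factors ID2, an inhibitor of basic helix-loop-helix factors that is known in trophectoderm, ran from -2.40 through a median of -1.05 to -0.52 in IVF and from -1.01 through 0.012 to 0.28 in AI embryos, with overlap (-1.03 ± 0.14, adjusted p = 3.07e-07). WWTR1, the coactivator TAZ, fell (-0.62 ± 0.15, lost with the sample in Cy3 alone). HES1, the repressor that answers Notch signals, ran from -1.22 through a median of -0.84 to -0.49 in IVF embryos and from -0.16 through 0.32 to 0.77 in AI embryos with no overlap (-1.12 ± 0.11, adjusted p = 4.57e-10). The receptor NOTCH3 fell as well (-0.38 ± 0.088), a call lost with Cy5 samples alone and with uncentred arrays.

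Of 9 primitive endoderm markers LAMB1, a laminin of the basement membrane, rose (1.10 ± 0.17), the endocytic adaptor DAB2 (-1.43 ± 0.26) and fibronectin, FN1 (-0.80 ± 0.15), fell, and 6 did not pass. GATA6, a transcription factor of that lineage, did not pass, with a 95% interval of the difference of -0.39 to 0.39. Of 9 fibroblast markers 0 rose and 1 fell, of 10 leukocyte markers 1 rose and 0 fell, and the 1 oocyte marker measured, ZP3, did not pass (-0.14 ± 0.23). The shares of all genes tested were 13.9% for rises and 15.6% for falls. None of the 6 red cell markers was analysed here. Of 4 cumulus and granulosa cell markers CYP11A1 (0.38 ± 0.10, lost as deposited) and HSD3B1 (1.01 ± 0.32, lost with either dye alone) rose. Their 4-gene mean level ran from -0.534 through -0.0557 to 0.441 in IVF embryos, against -0.967, -0.444 and 0.131 in AI embryos, and its part in the other results was not tested. Of 3 endometrial markers the mucin MUC1 (0.68 ± 0.18) and STC1 (0.28 ± 0.085) rose, and both calls ended with the sample in Cy3 alone. Their 3-gene mean level ran from -0.204 through -0.00133 to 0.204 in IVF embryos, against -0.676, -0.228 and 0.0938 in AI embryos, and its part was not tested either.

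Among 14 genes of proteins that bovine trophoblast secretes, 2 rose (14.3%, against 13.9% of all genes tested) and 0 fell. TKDP4, a Kunitz-type protein of trophoblast, ran from 0.18 through a median of 0.99 to 2.30 in IVF embryos, and from -0.79 through 0.046 to 0.93 in AI embryos, with overlap (0.94 ± 0.18, adjusted p = 0.00011). CSH2, placental lactogen, rose by 0.54 ± 0.14, a call lost with the sample in Cy3 alone and with 1 probe per gene. The pregnancy-associated glycoproteins PAG8 (-0.070 ± 0.11), PAG11 (-0.25 ± 0.20) and PAG12 (-0.46 ± 0.32) did not pass the test. Of 27 genes of epithelial junctions and polarity 3 rose (11.1%) and 4 fell (14.8%), near the shares of all genes tested (13.9% and 15.6%). CTNND1, the p120 catenin that stabilises cadherins (0.86 ± 0.22), and cingulin, CGN, of tight junctions (0.54 ± 0.14, lost with the sample in Cy5 alone), rose. Claudin calls (CLDN6 at -0.33 ± 0.10, CLDN4 at -0.42 ± 0.15) ended as deposited. Of 18 genes of ion and water transport 7 fell (38.9%, against 15.6%) and 3 rose (16.7%, against 13.9%). As deposited 1 fell and 1 rose. ATP1B3, a subunit of the sodium pump that drives filling of the cavity, fell (-0.55 ± 0.12, lost with the sample in Cy3 alone), and the water channel AQP3 differed by -0.43 ± 0.13, a call lost under 4 of the alternatives.

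Genes of cell adhesion, matrix and their signals gave several of the largest rises. PLAU, the urokinase plasminogen activator, ran from -0.63 through a median of 0.52 to 1.39 in IVF embryos, and from -2.45 through -1.17 to -0.47 in AI embryos, with a narrow overlap, and 15 of 15 IVF embryos exceeded the AI mean (1.65 ± 0.29, adjusted p = 1.97e-05). FILIP1L, an inhibitor of cell migration, ran from -1.93 through a median of -0.37 to 0.53 in the 14 IVF embryos with a value and from -4.71 through -1.84 to -1.36 in AI embryos, with overlap (1.98 ± 0.31, adjusted p = 2.86e-06). FZD4, a Wnt receptor, and TSPAN12, the tetraspanin that enhances its signal, rose by 1.75 ± 0.33 and 1.56 ± 0.37. Of 61 genes of matrix, integrins and proteases 12 rose (19.7%, against 13.9% of all genes tested) and 6 fell (9.84%, against 15.6%). As deposited 10 rose and 2 fell. Of 36 immediate early and YAP target genes 10 rose (27.8%) and 4 fell (11.1%). Among these the YAP targets ANKRD1 (1.54 ± 0.31) and CCN2 (0.76 ± 0.14) and the phosphatase DUSP1 (0.66 ± 0.14, lost with the sample in Cy3 alone) rose. EGR1, an immediate early transcription factor, ran from -4.90 through a median of -4.02 to -2.24 in IVF embryos, and from -4.12 through -1.78 to -0.42 in AI embryos, with overlap (-1.87 ± 0.34, adjusted p = 3.36e-05). JUNB fell too (-0.52 ± 0.12, lost with 1 probe per gene). ETS1, a transcription factor downstream of growth factor signals, rose (1.44 ± 0.25), as did HBEGF, a ligand of the EGF receptor (0.73 ± 0.19).

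Of 54 genes of actin and myosin 10 fell (18.5%) and 7 rose (13.0%), near the shares of all genes tested (15.6% and 13.9%). The actin-sequestering thymosins TMSB10 (-0.96 ± 0.11, adjusted p = 1.35e-08) and TMSB4X (-0.74 ± 0.14), alpha-actinin ACTN1 (-0.96 ± 0.14) and the light chain MYL6 (-0.66 ± 0.10) fell. CAP1, which recycles actin monomers (0.68 ± 0.12), rose, as did the endosomal GTPase RHOB (1.08 ± 0.18). The microtubule-destabilising protein stathmin, STMN1, fell by 1.12 ± 0.22, and NUDC, of the dynein pathway, by 1.25 ± 0.20. In the cell cycle 6 of 41 genes rose (14.6%, against 13.9% of all genes tested) and 2 fell (4.88%, against 15.6%). The 2 that fell were TFDP1, the partner of E2F factors (-0.92 ± 0.12, adjusted p = 1.14e-07), and RPA3, of the single-strand DNA binding complex (-0.86 ± 0.16).

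OCIAD2, a protein of endosomes and mitochondria, had the largest rise of all. It ran from -4.03 through a median of -1.85 to -0.052 in IVF embryos, and from -5.35 through -4.62 to -1.98 in AI embryos, which overlapped widely (2.18 ± 0.43, adjusted p = 0.000115). PLPP1, a phosphatase of lysophosphatidic acid and other lipid phosphates, ran from -1.55 through a median of -0.24 to 0.53 in IVF embryos and from -2.58 through -1.91 to -1.04 in AI embryos, with overlap (1.44 ± 0.18, adjusted p = 3.35e-08), and SGPL1, which breaks down sphingosine 1-phosphate, rose by 1.56 ± 0.22. ABHD2, a lipase, rose by 1.39 ± 0.19 and KCNK1, a potassium channel, by 1.57 ± 0.28.

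Of 14 genes of cholesterol synthesis and uptake 3 rose (21.4%, against 13.9% of all genes tested) and 4 fell (28.6%, against 15.6%). LSS, the cyclase that makes lanosterol, rose (1.07 ± 0.23), as did MYLIP, the ubiquitin ligase that degrades the LDL receptor (1.22 ± 0.30), and EBP, a sterol isomerase, fell (-0.86 ± 0.20). Of 15 genes of fatty acid and glycerolipid synthesis 5 rose (33.3%, against 13.9%) and 3 fell (20.0%, against 15.6%). FABP3, a fatty acid carrier, fell (-1.005 ± 0.21), and PLIN2, the main coat protein of lipid droplets, rose (0.48 ± 0.13). HSD17B10, a mitochondrial dehydrogenase of steroids and branched fatty acids, ran from -0.62 through a median of 0.54 to 1.73 in IVF embryos, and from 0.14 through 1.99 to 2.54 in AI embryos, with overlap (-1.27 ± 0.21, adjusted p = 6.76e-06). Of 10 ABC transporters 4 rose (40.0%, against 13.9%) and 2 fell (20.0%, against 15.6%). ABCC2 (1.04 ± 0.32) and ABCG2 (1.22 ± 0.32, lost with the sample in Cy3 alone), which export drugs and conjugates, were among the 4.

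Transport and immune genes included single large falls. Of 64 solute carriers 15 fell (23.4%, against 15.6% of all genes tested) and 7 rose (10.9%, against 13.9%). SLC1A3, a glutamate and aspartate transporter, ran from -3.79 through a median of -2.79 to -1.77 in IVF embryos and from -2.58 through -1.33 to -0.49 in AI embryos, with overlap (-1.49 ± 0.21, adjusted p = 5.29e-07). Of 36 genes of complement, chemokines and cytokines 5 rose and 5 fell (13.9% each), near the shares of all genes tested (13.9% and 15.6%). CD59, which blocks the membrane attack complex of complement, ran from -1.98 through a median of -0.011 to 0.64 in IVF embryos, and from 0.22 through 1.83 to 2.23 in AI embryos, with overlap (-1.82 ± 0.21, adjusted p = 5.51e-09), and the chemokine CCL26 fell by 1.16 ± 0.28. In the interferon response 2 of 29 genes rose and 2 fell (6.9% each, below both shares), with the falls led by IFI35 (-1.47 ± 0.25, adjusted p = 1.53e-05).

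Imprinted genes are expressed mainly from 1 parental copy in at least some tissues. Of 16 measured, 1 rose and 1 fell (6.25% each, against 13.9% and 15.6% of all genes tested). Both calls ended as deposited (0 and 0). PLAGL1, a zinc finger growth regulator, ran from -4.35 through a median of -3.63 to -1.85 in IVF embryos and from -4.71 through -4.23 to -3.35 in AI embryos, with overlap (0.61 ± 0.21, adjusted p = 0.022). CD81, a tetraspanin, differed by -0.69 ± 0.21 (adjusted p = 0.00919). IGF2, a fetal growth factor, differed by 0.36 ± 0.15 (95% interval 0.062 to 0.65, adjusted p = 0.0599), and H19, the non-coding RNA beside it, by 0.25 ± 0.13 (95% interval -0.0066 to 0.50). PEG3 (0.26 ± 0.10, adjusted p = 0.0511) and DLK1 (0.30 ± 0.13) also missed the threshold.

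**Figure D5:**
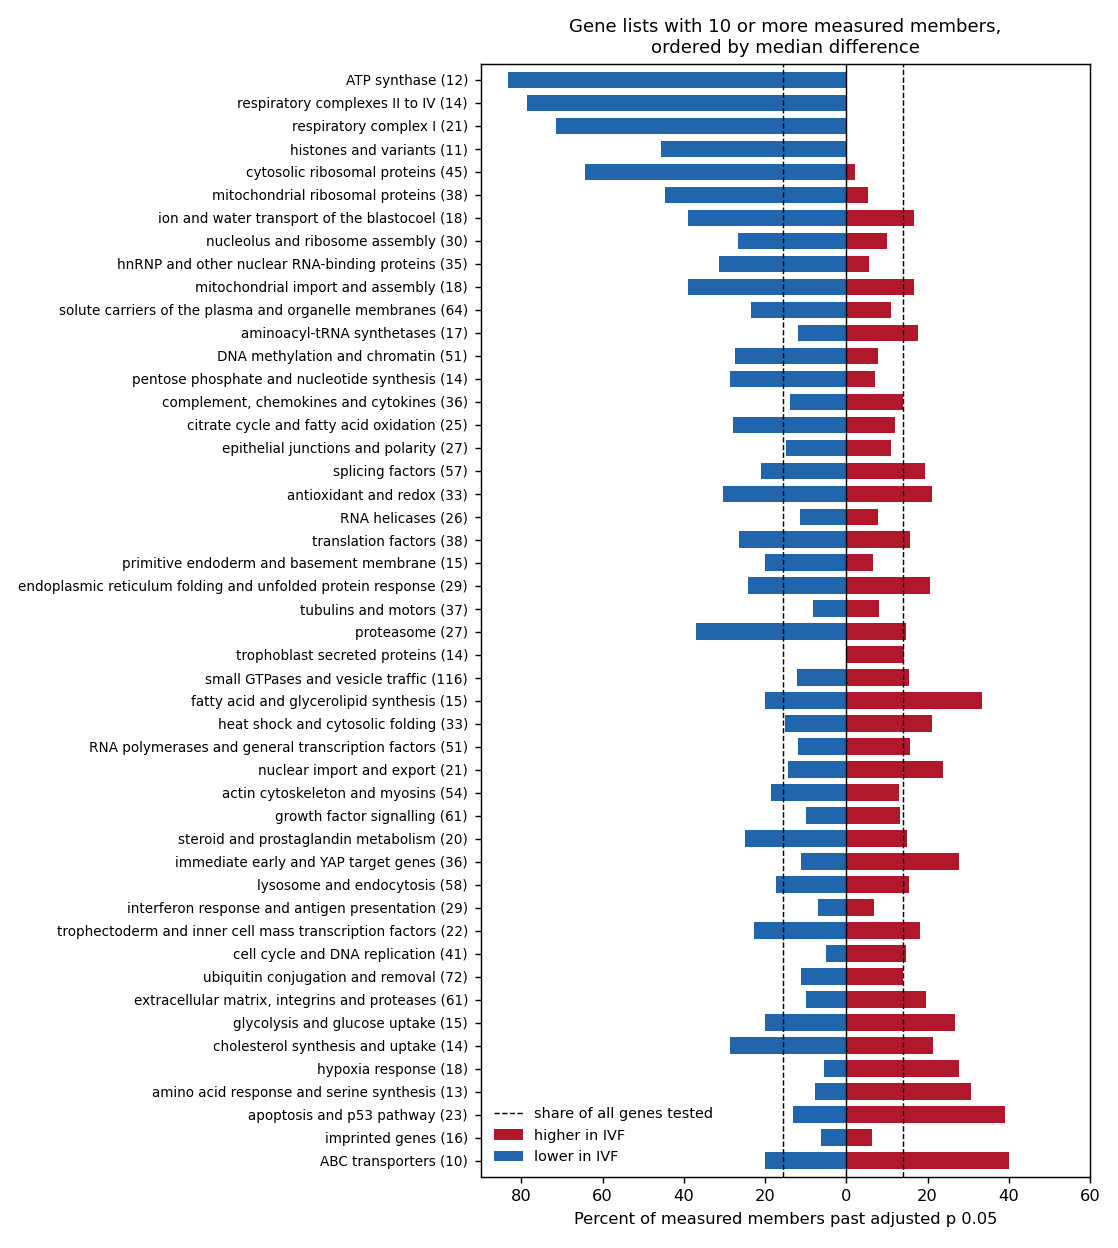
For each gene list with at least 10 measured members (number in brackets), the percentage of members called higher (red, to the right) and lower (blue, to the left) in IVF embryos, with dashed lines at the shares of all genes tested, 13.9% higher and 15.6% lower. Lists are ordered by median difference, with ATP synthase, the respiratory complexes, histones and ribosomal proteins at the top.

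The NT embryos were measured on the same array design and set against the same AI embryos, so that the comparisons share their controls. For CASP6 they ran from 1.21 through a median of 1.88 to 2.61, and the difference of NT minus AI was -1.17 ± 0.13, beside -1.17 ± 0.13 for IVF minus AI. For ATF4 the NT median was -0.20, with 1.11 ± 0.17 for NT minus AI beside 1.07 ± 0.17 for IVF minus AI. PLPP1 differed by 1.17 ± 0.18 in NT and 1.44 ± 0.18 in IVF embryos against AI, and OCIAD2 by 1.99 ± 0.43 and 2.18 ± 0.43. For each of these 4 genes NT minus IVF did not pass the test.

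For other leading genes NT minus IVF was itself past the threshold. TXNRD1 ran from 0.75 through a median of 1.20 to 2.01 in NT embryos and differed by -1.12 ± 0.14 between NT and IVF embryos (adjusted p = 1.4e-07), against 0.16 ± 0.15 between NT and AI embryos. SFN differed by -1.21 ± 0.15 from IVF (adjusted p = 3.07e-08) and by -0.089 ± 0.15 from AI embryos. COX7A2 was higher in NT than in IVF embryos by 1.05 ± 0.11 and differed from AI embryos by -0.29 ± 0.11. H2AZ1 was higher by 1.01 ± 0.093 in NT than in IVF embryos and differed by -0.032 ± 0.094 from AI embryos. The mean level of the 47 genes of oxidative phosphorylation ran from 0.0592 through a median of 0.227 to 0.466 in NT embryos, above all IVF embryos. That of the 45 ribosomal protein genes ran from -1.03 through -0.831 to -0.495 in NT embryos, beside the IVF range of -1.13 to -0.619.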

How the data were processed

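Total RNA of single bovine blastocysts and of donor cells was hybridised with a common reference to a custom cDNA array, 2 arrays per sample with the dyes exchanged, per the labels' protocols. The deposited values are log2 ratios of 16416 spots, made by the authors with scale, centring and direction unstated, and the software behind them is not given in the sources used here. Values above 16 (2657 cells at a fill value of 16.61) were set missing and 4.39% of cells were empty. The sign of arrays whose sample carried Cy3 was inverted, which takes the ratio as Cy5 over Cy3, the direction under which embryos carry trophectoderm markers and donor cells fibroblast markers. Each array was centred on its median (-2.14 to 0.862 before centring), adjacent duplicate spots were averaged to 8208 probes, and a sample took the mean of its 2 arrays where both had a value. Centring sets the typical gene to 0 in every embryo, so that a shift of all genes cannot be seen.

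Of the probes, 5598 had 1 gene symbol, 95 several and 2515 none in the platform annotation, and 5591 symbols were matched to RefSeq gene records. Probes of 1 symbol were averaged, and 3475 of the 4398 genes rested on 1 probe. A gene was tested where at least 0.5 of the embryos of each kind and the 2 donor samples were measured. All 46 samples entered 1 model of group means in limma 3.58.1 (R 4.3.3; lmFit and eBayes, 2-sided), so that the kinds share 1 estimate of the spread, with Benjamini-Hochberg adjustment over all genes. The fit was tested on simulated data. Embryo numbers shared by IVF and AI embryos were not used as pairs: over 7 numbers the correlation of deviations ran from -0.0587 to 0.0393. An effect shared by few genes would not show in this correlation over all probes.

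Genes were named if among the 60 largest rises or falls past the threshold, among the 8 of smallest p in a list, or cell type markers, with the exceptions stated. The members and lists were chosen with earlier results of these data known. Alternatives changed the centring, normalisation, scale, dye, samples, filters and probes.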

Additional observations from a re-analysis of the deposited data

How the results depend on the processing

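With arrays as deposited, 344 genes were higher and 354 lower in IVF embryos, and 576 probes higher and 564 lower, against 611, 688, 1059 and 1054 with centred arrays. The cause was not tested. Over the 14 embryos with a number shared by both kinds, 7 of each, the fit with a replicate block gave 215 genes higher and 236 lower and 312 probes higher and 318 lower. The same 14 embryos without the block, chosen after seeing the data, gave 313 and 377 genes and 494 and 529 probes. Both fits left out the NT and donor cell samples, and the cause of the lower counts was not tested. None of the 7 numbers gave a correlation over 0.1 and no embryo correlated best with its own number. Every other alternative kept these 4 counts within 1.5 times, with 558 to 636 genes higher and 544 to 714 lower, including the fit without IVF embryo 11, an alternative chosen after seeing the data. Of the 190 genes named, TFAP2A turned in sign, with the sample in Cy3 alone (0.092), for a cause that was not tested. As deposited 17 named genes lost their call, with the sample in Cy3 alone 23, with the replicate block 49 and in the same 14 embryos without the block 32. Of all 1299 called genes, 8 turned in sign with the sample in Cy5 alone, 12 with it in Cy3 alone, 7 with 1 probe per gene and 0 with quantile normalisation or arrays as deposited. Without intensities, dim spots cannot be told from bright ones, and most genes rest on 1 probe.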
